A study of Mus musculus with 4 samples.

Results

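Netrins and their receptors were described in the cerebral cortex of newborn mice, as a family of 10 genes: the netrins Ntn1, Ntn3 and Ntn4, the receptor genes Dcc, Neo1 and Dscam, and the UNC5 receptor genes Unc5a, Unc5b, Unc5c and Unc5d. The genes were matched by name among the 55414 rows of the deposited table, where each name occurred once, and all 10 were among the 17017 genes that passed the filter on low counts. The family was chosen by a measured value, the lower level of Ntn1 in the libraries labelled cKO, so the genotype difference of Ntn1 is given as a description with no test. The other 9 genes entered by name, as members of the same family, but the members were chosen with earlier results of these data known.

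Netrins are secreted, laminin-like proteins that steer growing axons and migrating cells. DCC mediates attraction towards netrin-1, and UNC5 receptors, alone or together with DCC, mediate repulsion. In the forebrain this system is known for guiding commissural axons of the corpus callosum, thalamocortical and corticofugal axons, and DCC and UNC5 receptors are also known as dependence receptors, which can promote cell death when no ligand is bound.

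The study compared 2 genotypes on postnatal day 1 in C57BL/6J mice: Mkk7flox/flox (Control, 2 libraries) and Mkk7flox/flox with Emx1-Cre (cKO, 2 libraries). MKK7, encoded by Map2k7, is a kinase that activates the JNK kinases. Emx1-Cre recombines in progenitors of the dorsal telencephalon and so in cortical excitatory neurons and much of the cortical glia, but in few of the neurons born in the ventral telencephalon. Both groups carry the floxed alleles and only the cKO genotype names Cre, so an effect of Cre itself and of the loss of MKK7 cannot be told apart. Replicates are numbered 2 and 3 in each group. The labels do not say whether they are separate animals, and each p-value rests on the scatter among 4 libraries, which may be partly technical.

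Library totals lay between 19421470 and 22511175 estimated counts. All 8 markers of cortical identity had counts in every library, and of 6 Hox genes of the hindbrain and spinal cord 5 were at 0 everywhere and the other had 1 count in all. Map2k7 stood at 38.4 and 30.4 CPM (counts per 1000000) in Control 2 and 3 and at 47.9 and 48.2 CPM in cKO 2 and 3, so neither cKO library lay below a Control library. Whole-gene counts do not show whether an exon was removed, and each direction below rests on the labels. Choroid plexus markers, as a sum, differed between replicate numbers. Their summed level was 1108 and 452 TPM (transcripts per 1000000, which corrects for transcript length) in Control 2 and cKO 2. It was 19.8 and 12.3 TPM in Control 3 and cKO 3. Most of the sum in replicate 2 was Ttr, with 1067 and 429 TPM. Folr1, Clic6, Aqp1 and Otx2 were also higher in replicate 2 of both groups. Kcnj13 was level in Control (5.46 and 5.36 TPM), and Kl had 4 counts in Control 2 and 27 in Control 3. Of 6 thalamus markers 3 had a negative log2 fold change (cKO over Control). Their summed level was 30.6 and 32.7 TPM in Control and 23.9 and 29.0 TPM in cKO. Among them Gbx2 had 30 and 52 counts in Control and 0 in both cKO libraries, a description with no test. Tcf7l2 had 11.05 and 10.96 CPM in Control and 5.27 and 7.53 CPM in cKO. Xist was read 0 times in cKO 3 and 1004 to 1218 times elsewhere, so cKO 3 also differs from the other libraries in sex, and cKO 2 and cKO 3 do not come from 1 animal. For the Control libraries this is not known. Over all genes tested, edgeR's quasi-likelihood test called 1 gene higher and 7 lower at an adjusted p below 0.05, which is 0.047% of them.

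Ntn1, which encodes netrin-1, was 3.80-fold lower in the libraries labelled cKO. Control 2 and Control 3 held 298 and 314 counts, or 15.2 and 15.9 CPM. In cKO 2 and cKO 3 there were 91 and 78 counts, or 4.79 and 3.42 CPM. Both cKO values lay far below both Control values, and the exact Poisson intervals of the counts (95%, counting error only) ran from 13.5 to 17.8 CPM over the Control libraries and from 2.70 to 5.88 CPM over the cKO libraries. On the log2 scale the difference was -1.92 (SE 0.31, 2 libraries per group), a description because this value chose the family. With 1 library left out at a time the difference lay between -2.18 (without cKO 2) and -1.70 (without cKO 3). Ntn1 (ENSMUSG00000020902.13) lies on chromosome 11 (68100190 to 68291649, minus strand, GRCm39), and its counts were whole numbers in all libraries. The 1 other gene inside its span that had counts was the lncRNA gene Gm12305, with 1 count in all. On the TPM scale Ntn1 stood at 3.83 and 3.71 TPM in the Control libraries and at 1.05 and 0.860 TPM in the cKO libraries.

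**Figure D1:**
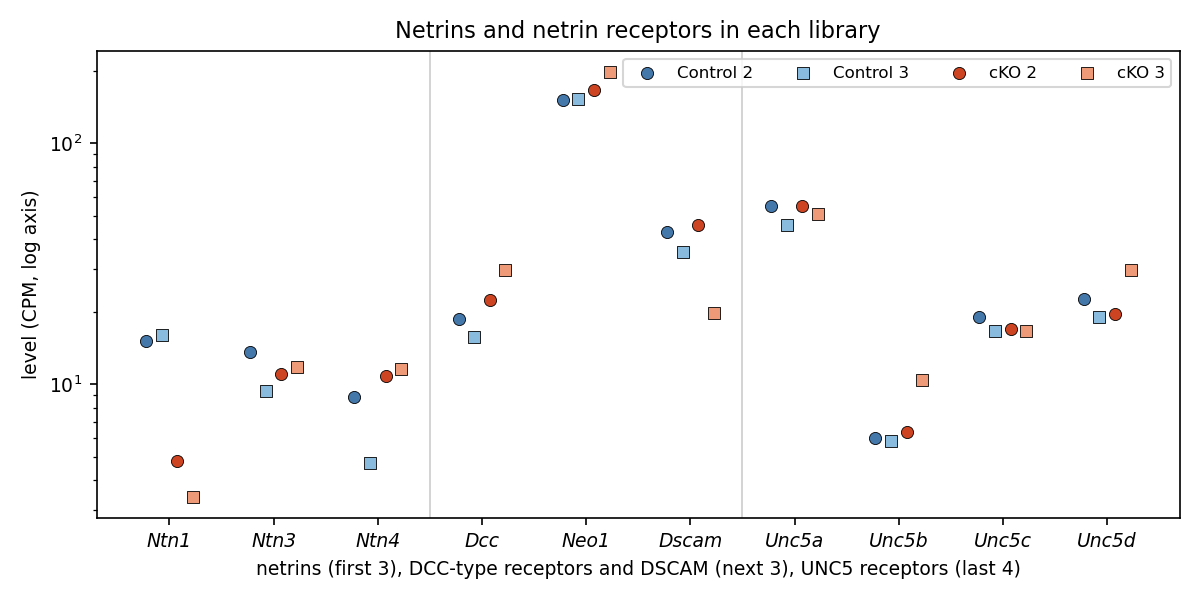
Level of each gene in CPM (log axis) in the 4 libraries, with circles for replicate 2 and squares for replicate 3 of each group. Ntn1 drops from 15.2 and 15.9 CPM in the Control libraries to 4.79 and 3.42 CPM in the cKO libraries, while each other gene has at least 1 cKO library at or above the lower Control library.

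Netrin-1 is made in the developing striatum and ventral telencephalon as well as in the floor plate, and markers of striatal projection neurons were lower in the same libraries. All 20 genes of that marker list had a negative log2 fold change (median -1.62, against -0.00 over all genes tested), and 1 of them passed the threshold. The list was chosen with earlier results of these data known, so this count is a description. The summed level of the list was 532 and 392 TPM in the Control libraries and 156 and 177 TPM in the cKO libraries. None of its genes was at 0 in a whole group. Six3, a homeobox gene of striatal precursors, stood at 14.2 and 12.9 CPM in Control and at 4.74 and 2.23 CPM in cKO. Drd1 and Drd2 encode the dopamine receptors of the direct and indirect pathway neurons. Drd2 had 9.17 and 5.63 CPM in Control and 1.42 and 1.23 CPM in cKO. Drd1 differed less, with 20.6 and 15.02 CPM against 13.5 and 12.3 CPM. Ventral telencephalon progenitor markers (8 of 10 negative, median -0.24) and interneuron markers (9 of 11 negative, median -0.20) had smaller differences, with summed levels of 188 in both Control libraries against 155 and 138 TPM, and of 2019 and 1843 against 1678 and 1489 TPM. Astrocyte markers were lower too in 6 of 7 cases (median -0.53), with summed levels of 1429 and 1487 TPM in Control and 931 and 1071 TPM in cKO. Most of that sum was Apoe, with 1279 and 1349 TPM in Control and 817 and 940 TPM in cKO. In Slc1a2, counted among the 6, the groups overlapped (log2 fold change -0.02). None of the 7 passed the threshold, and Gja1 stood higher in both cKO libraries. The 6 floor plate markers were uneven. Foxa1 had 1 count in all, Lmx1b 3, Foxa2 between 0 and 12 and Shh between 5 and 13 counts per library. Lmx1a had 18, 0, 42 and 22 counts in Control 2, Control 3, cKO 2 and cKO 3. Spon1 had 67.7 and 56.0 CPM in Control and 60.4 and 63.1 CPM in cKO, so the groups overlapped. The part of these cell types in the Ntn1 difference was not tested. In bulk tissue, fewer cells of a type and less RNA per cell cannot be told apart. With 2 libraries per group, neither can be told apart from unequal amounts of neighbouring tissue taken at dissection.

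The 5 genes whose pattern lay nearest to Ntn1 over the 4 libraries, by Euclidean distance of centred log2 CPM among 11144 genes with a mean of at least 5 CPM, were Fam161b (distance 0.149), Hjurp (0.186), Six3 (0.445), Slc16a13 (0.454) and Tmem267 (0.469). Over 4 libraries such a ranking picks genes with a genotype difference of like size. Fam161b had 12.02 and 12.08 CPM in Control and 3.90 and 2.98 CPM in cKO. Hjurp, whose product loads CENP-A at centromeres, had 51.9 and 59.8 CPM against 16.1 and 13.5 CPM. Slc16a13 encodes a member of the monocarboxylate transporter family. No other netrin or receptor gene lay near Ntn1: the nearest was Dscam, at rank 1572.

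The other 2 netrins were not lower together with Ntn1. Ntn4, which encodes a netrin of basement membranes that binds laminin, was at 8.81 and 4.72 CPM in Control 2 and 3 and at 10.8 and 11.6 CPM in cKO 2 and 3. Both cKO libraries lay above both Control libraries, but the Control libraries differed from each other more than the cKO libraries did from Control 2. Its log2 fold change was 0.72 (SE 0.36, edgeR adjusted p = 0.521), so it did not pass, and it moved from 0.34 without Control 3 to 1.24 without Control 2. Ntn4 (ENSMUSG00000020019.5) lies on chromosome 10 (93476543 to 93583069, plus strand). Ntn3, a netrin that also binds DCC and UNC5 receptors, was at 13.6 and 9.39 CPM in Control and 11.0 and 11.7 CPM in cKO. The cKO values lay between the Control values, with a log2 fold change of -0.02 (SE 0.29, edgeR adjusted p = 0.99). Ntn3 (ENSMUSG00000117406.2, chromosome 17, 24422822 to 24428505) overlaps Tbc1d24 on the same strand. Tbc1d24 held 5083 counts in all against 930 for Ntn3, and the estimated Ntn3 count was not whole in 2 libraries, so reads may have been split between the genes and its values are uncertain.

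Among the 3 netrin genes the make-up of the summed TPM therefore differed between the groups. Ntn1 made up 31.5% and 43.7% of it in Control 2 and 3 and 13.2% and 9.01% in cKO 2 and 3. The share of Ntn4 was 28.6% and 21.7% in Control and 49.0% and 49.9% in cKO. Ntn3 kept between 34.6% and 41.0% in all 4 libraries. Since a share of one gene rises when another is lower, these values repeat the level of Ntn1 in part. The summed level of the 3 genes was 12.2 and 8.48 TPM in Control and 7.94 and 9.54 TPM in cKO, and these ranges overlapped.

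**Figure D2:**
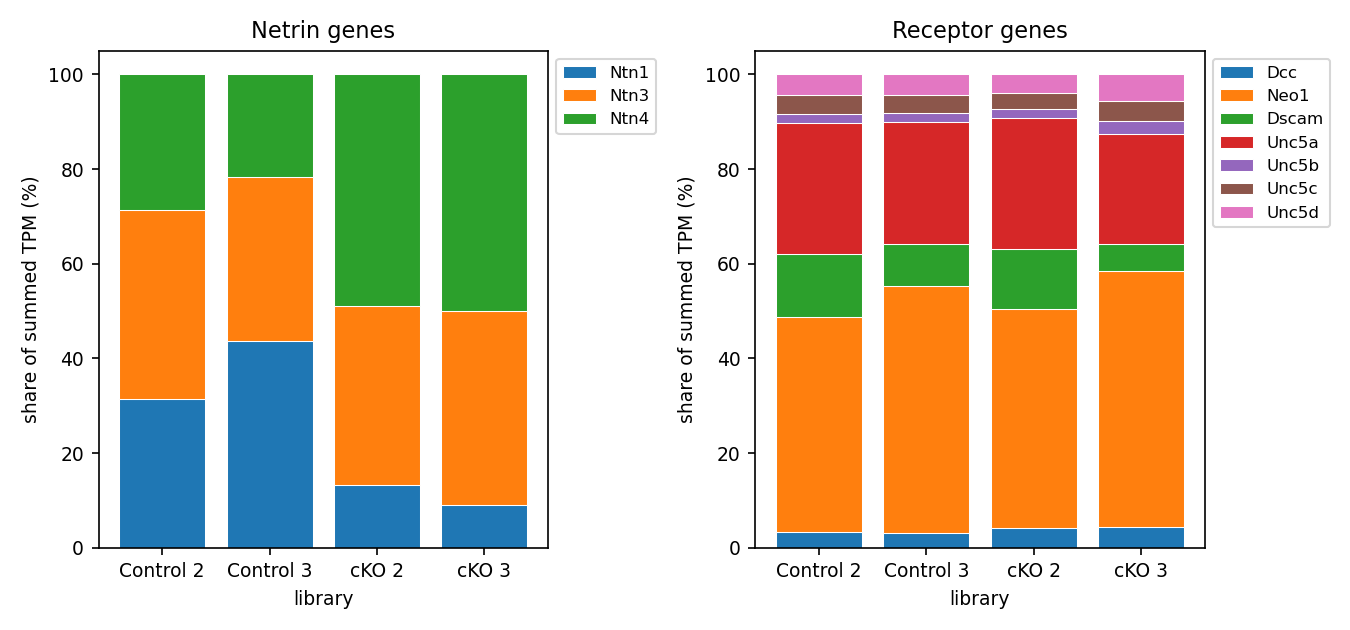
Stacked bars show the share (%) of each gene in the summed TPM of the 3 netrin genes (left) and of the 7 receptor genes (right) in each library. The Ntn1 part shrinks from 31.5% and 43.7% in Control to 13.2% and 9.01% in cKO, and Neo1 holds between 45.4% and 54.1% of the receptor pool.

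None of the 9 other genes passed the threshold over all genes tested (0.047% called), with edgeR adjusted p-values between 0.439 and 0.99. DESeq2 (1.09% of all genes called) and limma-voom (0.047% called) also called 0 of the 9. At an unadjusted p below the same threshold of 0.05 each of the 3 tools counted 1 of the 9, Dcc, where 10.9% of all genes tested passed in edgeR, 9.83% in DESeq2 and 11.4% in limma-voom. In 4 of the 9 genes (Ntn4, Dcc, Neo1 and Unc5b) both cKO libraries lay above both Control libraries, and in the remaining 5 the groups overlapped. Over all genes tested 44.1% had no overlap in either direction, and 4 of 9 is near that share. All 4 lay higher in cKO, however, and 0 lower, where 22.0% of all genes tested lay higher without overlap. The log2 fold change was positive for 6 and negative for 3 of the 9, with a median of 0.25.

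Dcc, which encodes the main attractive netrin receptor, had the smallest unadjusted p of the 9. It was read 368 and 310 times in Control 2 and 3 and 423 and 680 times in cKO 2 and 3, or 18.7 and 15.7 against 22.3 and 29.8 CPM. The groups did not overlap, and cKO 3 was the highest library. The log2 fold change was 0.60 (SE 0.24, edgeR adjusted p = 0.439), with values between 0.37 without cKO 3 and 0.79 without cKO 2. Dcc (ENSMUSG00000060534.17) lies on chromosome 18 (71386705 to 72484140, minus strand) and spans 1097436 bases. With Ntn1 lower and Dcc not lower, the ratio of Ntn1 to Dcc in TPM was 1.52 and 1.81 in Control and 0.365 and 0.217 in cKO, a description that holds the value by which the family was chosen.

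Neo1 encodes neogenin, a relative of DCC that binds netrins and the repulsive guidance molecules RGMa and RGMb. It stood at 151.9 and 152.4 CPM in Control and at 166.1 and 197.8 CPM in cKO. The Control libraries were nearly equal and both cKO libraries were higher, cKO 3 the most. Its log2 fold change was 0.26 (SE 0.13, edgeR adjusted p = 0.521), between 0.12 without cKO 3 and 0.38 without cKO 2. In TPM the groups overlapped, since cKO 2 (32.4 TPM) lay below both Control libraries (34.8 TPM each) and cKO 3 (48.6 TPM) above them. Neo1 (ENSMUSG00000032340.9) lies on chromosome 9 (58781970 to 58943724, minus strand).

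Dscam encodes an adhesion molecule of the immunoglobulin superfamily that also serves as a netrin receptor. It was at 43.0 and 35.5 CPM in Control 2 and 3, at 45.9 CPM in cKO 2 and at 19.7 CPM in cKO 3. The cKO 2 library was the highest and cKO 3 the lowest of the 4, a 2.34-fold gap within the cKO group. The log2 fold change was -0.26 (SE 0.36, edgeR adjusted p = 0.833), and it was 0.23 without cKO 3 and -0.996 without cKO 2, so its sign rests on cKO 3. Dscam (ENSMUSG00000050272.11) lies on chromosome 16 (96392040 to 96971952, minus strand).

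None of the 4 UNC5 receptor genes passed. Unc5a, the highest of them in TPM, was at 54.7 and 45.9 CPM in Control and at 54.9 and 51.1 CPM in cKO. Its log2 fold change was 0.07 (SE 0.17, edgeR adjusted p = 0.907). The groups overlapped, and the sign turned without Control 3 (-0.05). Unc5a (ENSMUSG00000025876.16) lies on chromosome 13 (55097224 to 55153831, plus strand), and its end overlaps Hk3 on the opposite strand, which held 175 counts in all against 4190 for Unc5a. Unc5c, whose product is known for repulsion of corticofugal and callosal axons, was at 19.0 and 16.7 CPM in Control and 17.0 and 16.6 CPM in cKO. With -0.09 (SE 0.22) its log2 fold change was smaller than its error (edgeR adjusted p = 0.918). Unc5c (ENSMUSG00000059921.16) lies on chromosome 3 (141170977 to 141540685, plus strand).

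Unc5b and Unc5d stood highest in cKO 3. Unc5b, which is best known from endothelial tip cells, had 6.01 and 5.79 CPM in Control, 6.32 CPM in cKO 2 and 10.4 CPM in cKO 3. Its log2 fold change of 0.51 (SE 0.36, edgeR adjusted p = 0.654) was 0.10 without cKO 3. The summed level of 10 endothelial markers was 244 and 240 TPM in Control and 242 and 257 TPM in cKO, which is nearly level, although 9 of the 10 had a positive log2 fold change (median 0.31). The 1 negative marker, Cldn5, was the largest part of that sum, with 129 and 122 TPM in Control and 112 and 114 TPM in cKO. Unc5d marks upper-layer neurons and their precursors, and its product binds FLRT2. It had 22.7 and 18.9 CPM in Control, 19.6 CPM in cKO 2 and 29.9 CPM in cKO 3. With a log2 fold change of 0.25 (SE 0.26, edgeR adjusted p = 0.763) it did not pass, and without cKO 3 its sign turned (-0.09). Upper-layer markers had a summed level of 224 and 255 TPM in Control and 234 and 291 TPM in cKO, so they too were highest in cKO 3. Intermediate progenitor markers (4 of 5 positive, median 0.65) had summed levels of 74.6 and 76.3 TPM in Control and 105 and 136 TPM in cKO. Their sum was also highest in cKO 3, but both cKO libraries lay above Control. Sstr2 was the largest part of it, with 40.3 and 37.5 TPM in Control and 65.7 and 82.9 TPM in cKO. Eomes, Neurog2 and Insm1 were also higher in both cKO libraries, whereas the groups overlapped in Btg2. The part of either cell type in the Unc5d values was not tested. Unc5b (ENSMUSG00000020099.9) lies on chromosome 10 (60598372 to 60667360, minus strand) and Unc5d (ENSMUSG00000063626.7) on chromosome 8 (29136745 to 29709664, minus strand).

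**Figure D3:**
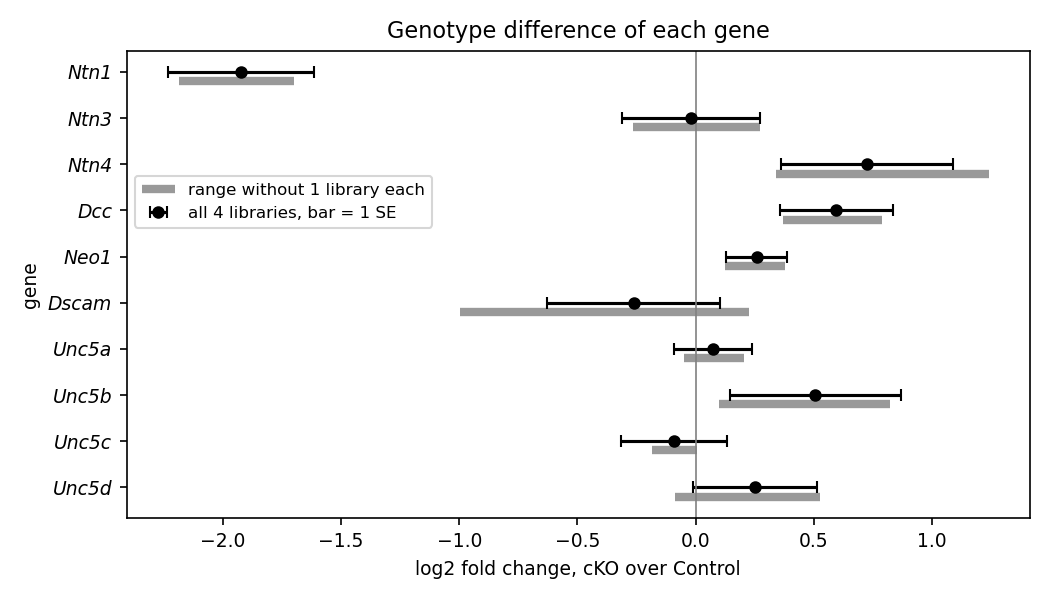
Points show the log2 fold change of each gene (cKO over Control) with bars of 1 SE, and grey bars the range of the same value when 1 library at a time is left out. Ntn1, by whose difference the family was chosen, lies between -2.18 and -1.70, a description with no test. The ranges of Ntn3, Dscam, Unc5a, Unc5c and Unc5d include 0.

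Ordered by mean TPM over the 4 libraries, Neo1 came first (37.7 TPM, range 32.4 to 48.6), then Unc5a (19.6, range 17.1 to 21.3) and Dscam (7.51, range 5.05 to 10.2). These 3 held ranks 1, 2 and 3 in every library, and their ranges overlapped neither each other nor that of the next gene. Neo1 had a higher mean TPM than 75.6% of the genes tested. The other 7 genes, from Ntn3 (3.68 TPM) over Ntn4, Unc5d, Unc5c, Dcc and Ntn1 to Unc5b (1.68 TPM), had ranges that overlapped from one neighbour to the next, so their order is not resolved. Ordered by counts per kilobase of the deposited length, 6 of the 10 genes kept their rank, the first 3 among them. Ntn1 had rank 5 and 4 in Control 2 and 3 and rank 10 in both cKO libraries.

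In the receptor pool the shares of Neo1 and Unc5a overlapped between the groups. Neo1 held 45.4% and 52.3% of the summed receptor TPM in Control and 46.4% and 54.1% in cKO, and Unc5a held 27.8% and 25.7% against 27.5% and 23.3%. The 4 UNC5 genes together made up 38.0% and 35.8% in Control and 36.8% and 35.9% in cKO. Dcc was a small part, with 3.29% and 3.07% in Control and 4.12% and 4.40% in cKO, and it was the one receptor whose share lay higher in both cKO libraries by more than the gap between the libraries of either group. The summed level of the receptors was 76.7 and 66.5 TPM in Control and 69.9 and 89.8 TPM in cKO.

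A gene's count divided by its TPM is proportional to the length of the transcripts its reads were assigned to. Scaled on genes with 1 transcript, this apparent length came within -9.80% to 17.7% of the true length for the central 90% of those genes. For all 10 family members the deposited length equals that of the longest transcript in GENCODE M21 (an annotation of build GRCm38, used here only for transcript lengths). Ntn1 had apparent lengths of 5556 and 5963 bases in Control and 5847 and 5788 bases in cKO, near its transcripts of 5738 and 5874 bases in each library, and the groups overlapped. Ntn4 was the most even gene, with 3723 to 3738 bases. Dscam varied 1.44-fold: 5879 and 8181 bases in Control and 6545 and 5689 bases in cKO, between its long transcript (8737 bases) and its short one (1738 bases). The groups overlapped. Unc5c was shorter in cKO 3 (6334 bases) than in the other libraries (8281 to 9353 bases), and its TPM there was 3.79 against 2.25 in cKO 2, although its CPM was nearly the same (16.6 and 17.0). TPM values of Dscam and Unc5c thus depend on how reads were assigned to transcripts, more than those of the other genes.

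**Figure D4:**
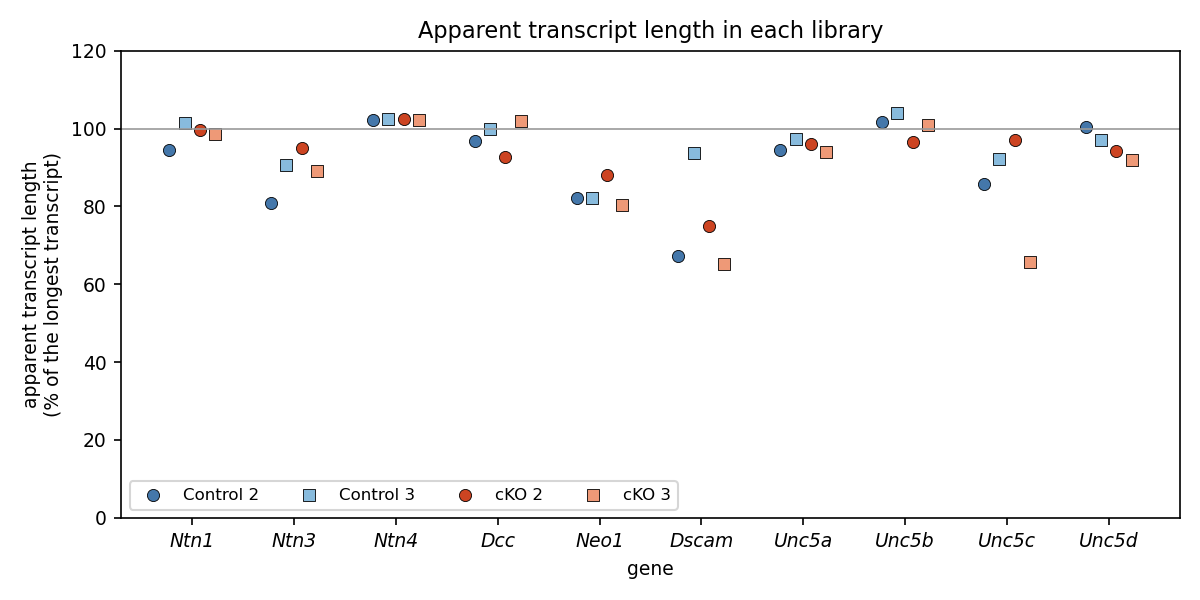
Apparent transcript length, as a percent of the longest transcript of each gene, in the 4 libraries (circles replicate 2, squares replicate 3). Ntn1 lies between 94.6% and 101.5% in all libraries, while Dscam reaches down to 65.1% and Unc5c to 65.7%, both in cKO 3.

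Several receptor genes were higher in cKO 3 than in cKO 2, and these genes are long. Of the 10 family members 5 were highest in cKO 3 (Ntn4, Dcc, Neo1, Unc5b and Unc5d), where 25.9% of all genes tested were. Between cKO 3 and cKO 2 the log2 ratio was 0.42 for Dcc, 0.25 for Neo1, 0.72 for Unc5b and 0.61 for Unc5d. Over all genes with counts in every library the same ratio moved with transcript length, from a median of -0.32 below 1000 bases to 0.17 at 7000 bases and above (1380 genes). Dscam (8737 bases) went the other way, with -1.22, and Unc5c (9646 bases) stood at -0.03. The part of transcript length in the cKO 3 values was not tested.

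The partners of these receptors were read from 4 lists of 51 genes, of which 50 were tested. None passed in edgeR, where 30 had a positive and 20 a negative log2 fold change (median 0.05). At an unadjusted p below 0.05 there were 6 of 50 in edgeR, where 10.9% of all genes tested passed, and 6 in limma-voom, which called none. DESeq2 counted 7 and called 1, Flrt3 (log2 fold change 0.58, SE 0.15, DESeq2 adjusted p = 0.0202), where it called 1.09% of all genes tested, so 1 of 50 is near that share. Each of these counts at an unadjusted p includes Prtg, and without it they were 5 in edgeR, 5 in limma-voom and 6 in DESeq2, of 49 genes.

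Among other ligands and partners of the receptors (12 tested, 7 positive, median 0.02), Flrt3 encodes an adhesion protein that binds UNC5 receptors. It had 81.4 and 79.0 CPM in Control and 117 and 123 CPM in cKO. In edgeR its log2 fold change was 0.58 (SE 0.12, adjusted p = 0.28). The cKO libraries lay above the Control libraries by more than the gap within a group. Adgrl3, which encodes the latrophilin that binds FLRT3, had 36.3 and 33.1 CPM in Control and 47.1 and 50.6 CPM in cKO (0.49, SE 0.17, edgeR adjusted p = 0.399). Lrrc4, the gene of netrin-G ligand 2, had 39.8 and 34.6 CPM against 15.6 and 32.1 CPM, so it was low mainly in cKO 2 (-0.64, SE 0.33). Cbln4, whose product binds DCC, was also low in cKO 2 alone, at 6.27 CPM against 11.2 to 11.7 CPM elsewhere.

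Of the relatives of netrins and DCC (6 tested, 4 positive, median 0.19), Prtg was at the limit of detection. Prtg encodes protogenin, a DCC relative of early development, and had 16 and 12 counts in the Control libraries and 0 in both cKO libraries. Against a floor of 3 counts per library this is at least 4.92-fold lower. Prtg passed the filter on low counts only through the Control libraries, so it had to differ, and the value is a description with no test. The list's median is the same with Prtg at that bound. Dscaml1, the paralogue of Dscam, had 31.4 and 26.6 CPM in Control and 42.3 and 41.9 CPM in cKO (0.54, SE 0.18, edgeR adjusted p = 0.399), whereas the groups overlapped in Dscam. Igdcc3 had 9.06 and 7.72 CPM against 12.8 and 11.5 CPM, and Ntng1, which encodes the membrane-anchored netrin-G1, had 9.42 CPM in Control 2 and 4.51 to 5.28 CPM in the other 3 libraries. Ntn5 was not tested, with at most 9 counts in a library.

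For the signalling genes downstream of the receptors (25 tested, 16 positive, median 0.09), none passed in edgeR. Trim67, which encodes a brain E3 ligase that binds DCC, had 155 and 157 CPM in Control and 181 and 212 CPM in cKO (0.33, SE 0.13, edgeR adjusted p = 0.426). The kinase gene Src had 50.9 and 43.7 against 31.9 and 40.1 CPM. Rac1, the GTPase gene, had 476 and 454 against 511 and 559 CPM, and Tiam1, which encodes an activator of Rac, had 7.64 and 5.28 against 9.27 and 10.2 CPM. Among genes of receptor shedding and cleavage (7 tested, 3 positive, median -0.07), none passed in edgeR. Psen2, which encodes a subunit of gamma-secretase, a protease that cleaves DCC, had 15.4 and 15.6 CPM in Control and 10.3 and 13.6 CPM in cKO (-0.37, SE 0.26, edgeR adjusted p = 0.642). In Adam17 and Psenen the groups overlapped.

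**Figure D5:**
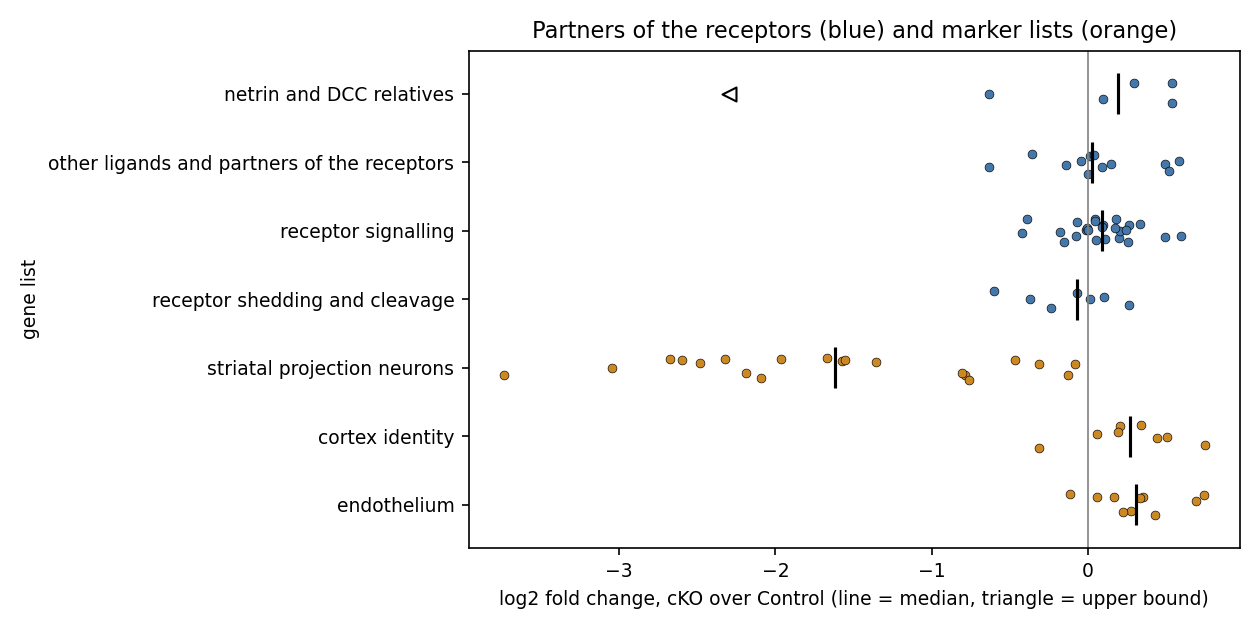
Each point is the log2 fold change (cKO over Control) of 1 tested gene of the 4 partner lists (blue) and of 3 marker lists (orange), with the list median as a line, and the triangle is the bound for Prtg. The partner lists are centred near 0 (medians -0.07 to 0.19), and the striatal list lies wholly below 0 (median -1.62). All lists were chosen with earlier results of these data known.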

How the data were processed

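Members and gene lists were chosen with earlier results of these data known. RNA of the cerebral cortex was measured in 4 libraries prepared with the SMART-Seq v4 Ultra Low Input kit, per the labels' protocols, whose cDNA does not record the strand. The table deposited by the authors holds estimated counts per gene and TPM, made with DRAGEN on GRCm39, per the submitters' processing notes. Other settings: not given in the sources used here. Replicates were not pooled. Coordinates and the gene length (1 value per gene, in bases), listed by the authors as another column, are those of the table.

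Estimated counts were rounded to whole numbers, filtered with edgeR's default filter (17017 of 55414 genes left) and scaled with TMM. Genotypes were compared over all genes with edgeR 4.0.16 (R 4.3.3; quasi-likelihood test, Benjamini-Hochberg adjustment, threshold 0.05), with genotype as the only term. SE is the absolute log2 fold change over the square root of F. CPM are counts per 1000000 of the TMM-scaled library. TPM carry no test. The libraries of a group were no duplicates (chi-square per degree of freedom 12.8 and 27.7). On simulated counts for the Control against cKO comparison (16498 genes), 2-fold changes were recovered in 64 and 4-fold changes in 95 of 100 genes each, with 11 false calls.

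Apparent length came from a Theil-Sen line of count over TPM on length, over 293 to 335 genes per library with 1 transcript, 1000 to 10000 bases and at least 500 counts. Named partners are the 4 genes of each list with the smallest p, of which 1 is not reported here. As alternatives, scaling was changed to RLE or upper quartile, the filter dropped or set at a mean of 1 CPM, the test replaced by DESeq2 1.42.0 or limma-voom (limma 3.58.1), dispersion estimated robustly, a replicate block added and each library left out.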

Additional observations from a re-analysis of the deposited data

How the results depend on the processing

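The Ntn1 difference kept its sign in all 12 alternatives, a description because this value chose the family. Among those that kept every library it lay between -1.95 (limma-voom) and -1.88 (upper-quartile scaling). With 1 library left out it lay between -2.18 and -1.70. None of the 9 other genes was called in any alternative (lowest adjusted p 0.371). Of their 108 values, 99 kept the sign. The 9 that turned were Ntn3 (0.0206 with upper-quartile scaling, 0.00895 with limma-voom, 0.00488 with the replicate block, 0.27 without Control 2 and 0.0285 without cKO 2), Unc5c (without Control 2), Unc5a (without Control 3), Dscam and Unc5d (without cKO 3); the cause was not tested. With 1 library left out, Ntn3 ranged from -0.266 to 0.274, Dscam from -0.996 to 0.225, Unc5a from -0.0496 to 0.204, Unc5c from -0.186 to 0.00402 and Unc5d from -0.0872 to 0.526. Calls over all genes numbered 8, against 58 without a filter on low counts, 185 in DESeq2 and between 0 and 2 with 1 library left out, where 1 group has a single library that is assumed to vary like the others. DESeq2 called 1 partner gene. With the replicate block there were 7 calls and an Ntn1 value of -1.94. Taken over all genes tested, same-numbered libraries hardly deviated together from their group means (correlation 0.0136). The summed level of choroid plexus markers, mostly Ttr, was an exception, being higher in replicate 2 of both groups. Nothing in the labels ties a number to a litter or day. Depth limits Ntn1 in cKO, Unc5b and Ntn4, with 78 to 264 counts per library.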

Other observations

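Svet1, a transcript from an intron of Unc5d that is known as a marker of the subventricular zone, was read 24 times in cKO 2, 4 times in Control 3 and 0 times in Control 2 and cKO 3, while Unc5d was highest in cKO 3. The antisense lncRNA gene Gm15688 over the start of Unc5c had 13, 10, 31 and 14 counts in Control 2, Control 3, cKO 2 and cKO 3, and Unc5c itself 374, 329, 322 and 379. The kit keeps no strand, so reads of the 2 genes cannot be told apart where they overlap.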
